A study of Homo sapiens with 6 samples.

Results

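The aldo-keto reductases of the AKR1C family and the antioxidant genes that the transcription factor NRF2 (gene NFE2L2) is known to control were followed in cells of MDA-MB-436, a long-established line of triple-negative breast cancer. They were taken from a fixed list of 57 genes, and every probe set whose platform symbol entry includes a listed gene was used. Of the 57 genes, 54 had a probe set, out of 19775 genes measured, and 113 probe sets named at least 1 of them. AKR1B1, AKR1A1 and FTH1 were not analysed here. Expression was measured with Affymetrix arrays in 3 samples labelled wild type and 3 samples labelled NF1-C2S transfected, both of MDA-MB-436. According to the series record, the transfected cells stably carry an expression plasmid for NF1-C2, which belongs to the nuclear factor I-C proteins. The wild type arrays have no plasmid in their labels, no sample is labelled as carrying an empty plasmid, and the sources used here do not give whether a clone or a pool was profiled. No label ties the replicates to separate cultures, so p-values here rest on array-to-array spread that may be technical. In bulk RNA, fewer cells of a kind and less message per cell cannot be told apart.

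AKR1C enzymes reduce ketones with NADPH, and their substrates include steroids, prostaglandins and carbonyls that form when lipids are oxidised. NRF2 is held in the cytoplasm and marked for destruction by KEAP1. When KEAP1 is modified by oxidants or electrophiles, NRF2 builds up, pairs with a small MAF protein and binds antioxidant response elements near its target genes, a site for which BACH1 competes as a repressor. The targets supply glutathione, thioredoxin and NADPH, detoxify quinones and carbonyls, break down heme and export conjugates. AKR1C genes are among the human genes that respond most to NRF2.

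AKR1C1, AKR1C2 and AKR1C3 were 3 of the 4 with the largest falls among the 54 measured genes of the list, so the 250 bases before their starts are shown first, as RefSeq sequence of GRCh38.p14. All lie on chromosome 10, at chr10:4963165-4963414 (plus strand) for AKR1C1, chr10:5003858-5004107 (minus strand) for AKR1C2 and chr10:5048531-5048780 (plus strand) for the first start of AKR1C3. They hold no capitals because the core of an antioxidant response element, TGACNNNGC on either strand, was not found in them, which says only that these letters are not there.
AKR1C1: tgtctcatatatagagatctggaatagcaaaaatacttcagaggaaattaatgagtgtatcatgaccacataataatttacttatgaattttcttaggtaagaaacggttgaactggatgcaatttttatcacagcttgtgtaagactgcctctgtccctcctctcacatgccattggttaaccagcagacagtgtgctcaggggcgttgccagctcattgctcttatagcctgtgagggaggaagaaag
AKR1C2: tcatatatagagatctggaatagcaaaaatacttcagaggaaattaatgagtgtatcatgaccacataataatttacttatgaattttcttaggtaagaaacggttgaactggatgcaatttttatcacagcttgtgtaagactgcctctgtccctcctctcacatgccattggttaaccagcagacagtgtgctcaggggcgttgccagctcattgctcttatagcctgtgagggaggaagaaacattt
AKR1C3: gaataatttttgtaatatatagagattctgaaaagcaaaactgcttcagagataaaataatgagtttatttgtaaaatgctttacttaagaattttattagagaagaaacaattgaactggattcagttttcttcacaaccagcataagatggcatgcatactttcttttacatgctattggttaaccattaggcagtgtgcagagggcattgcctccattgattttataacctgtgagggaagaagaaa
In a global alignment the AKR1C1 and AKR1C2 windows were identical in 245 of 254 columns (96.5%). AKR1C1 and AKR1C3 shared 72.4% of the columns at the start shown and 69.9% at the other start of AKR1C3, and AKR1C1 and AKR1C4 shared 64.0%.

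Windows of this kind were found for 44 of the 57 genes, and 11 of the 44 (25.0%) held the core, beside 13.2% of the 27305 genes with a window. Of 23 measured genes with a window that were lower on the transfected arrays, 6 held it, as did 4 of 6 that were higher and 1 of 13 that did not pass the test described next. The matches below are shown with their flanks, the core or its reverse complement in capitals, because genes with this motif are found in both directions. GCLM lies at chr1:93909440-93909480 (minus strand), TXNRD1 at chr12:104286914-104286954 (plus), CBR1 at chr21:36069849-36069889 (plus), GSTP1 at chr11:67583730-67583770 (plus) and ME1 at chr6:83431164-83431204 (minus).
GCLM: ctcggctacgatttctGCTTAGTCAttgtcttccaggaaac
TXNRD1: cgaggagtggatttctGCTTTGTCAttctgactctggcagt
CBR1: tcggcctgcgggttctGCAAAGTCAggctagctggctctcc
GSTP1: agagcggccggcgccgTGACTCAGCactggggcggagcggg
ME1: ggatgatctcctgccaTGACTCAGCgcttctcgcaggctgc
GCLM, TXNRD1 and CBR1 were lower in the transfected samples, and GSTP1 and ME1 higher. The calls of GSTP1 and ME1 ended in most fits that left out 1 array. GSTO1 and MAFF, also higher, held the core too, and TXNRD1 had another match before its other start. The nuclear factor I motif TTGGCA, on either strand, was in 3 of the 44 windows (6.82%) and in 13.0% of all windows by gene. A match describes letters and does not show that a factor binds.

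The arrays of a group correlated at 0.992 to 0.997 over all probe sets, and arrays of different groups at 0.971 to 0.976. NFIC, the gene of the factor named in the labels, had 4 probe sets, and none passed the test (log2 changes of -0.51 to 0.22). The part of the message on the plasmid is unknown here. NFIC probe sets are therefore no check of the groups, and every direction below rests on the labels. Of its relative NFIX, 1 probe set rose by 6.75 (adjusted p = 1.41e-06 over probe sets), while the other 3 changed by -1.07 to -0.46. Vimentin (VIM), FN1, ZEB1 and CDH2, mesenchymal genes of this line, were above the median of all values (4.82 on the log2 scale) in both groups, but the mean of the 4 was 10.35 to 10.43 on wild type and 9.47 to 9.53 on transfected arrays. FN1 fell by 2.77, VIM by 0.53 and ZEB1 by 0.41, and CDH2 changed by 0.18 and did not pass. In the epithelial list the wild type and transfected means were 12.55 and 11.62 for KRT18, 6.59 and 6.64 for KRT8, and 5.71 and 4.96 for EPCAM. E-cadherin (CDH1) and KRT19 lay below that median in both groups. Of the hormone receptor and HER2 genes, ERBB2 read 7.47 and 7.25, ESR1 read 5.88 and 5.85, and PGR lay below that median in both groups. Leukocyte, endothelial, fibroblast and adipocyte markers were below it in 3 of 4, 3 of 4, 3 of 4 and 2 of 3 measured genes, and the lists' mean levels were 3.76 to 4.53 on wild type and 3.66 to 4.79 on transfected arrays. The leukocyte gene CD14 rose by 0.83 (adjusted p = 0.00947). The part of these shifts in the results was not tested.

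Levels are RMA values on the log2 scale, and changes are transfected minus wild type on that scale, tested with limma and adjusted over all genes or, where stated, over all probe sets. A gene was read by its brightest probe set that names only that gene. Of the 54 measured genes, 27 were lower, 8 were higher and 19 did not pass an adjusted p of 0.05. The 8 became 4 without wild type replicate 1 or 2 or transfected replicate 1 or 3, and 5 without transfected replicate 2. Over all 19775 genes, 31.9% passed, 16.9% lower and 15.0% higher. Most of the 54 are well expressed, and among the 13134 genes above the median in at least 1 group 45.7% passed, 24.1% lower and 21.6% higher. Of the 50 listed genes above that median 25 were lower and 8 higher. The median log2 change was -0.32 over the 54 genes and 0 over all genes. At the level of probe sets, 37 of 113 were lower and 16 higher, beside 11.4% lower and 10.8% higher (22.2% together) of all 54613.

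**Figure D1:**
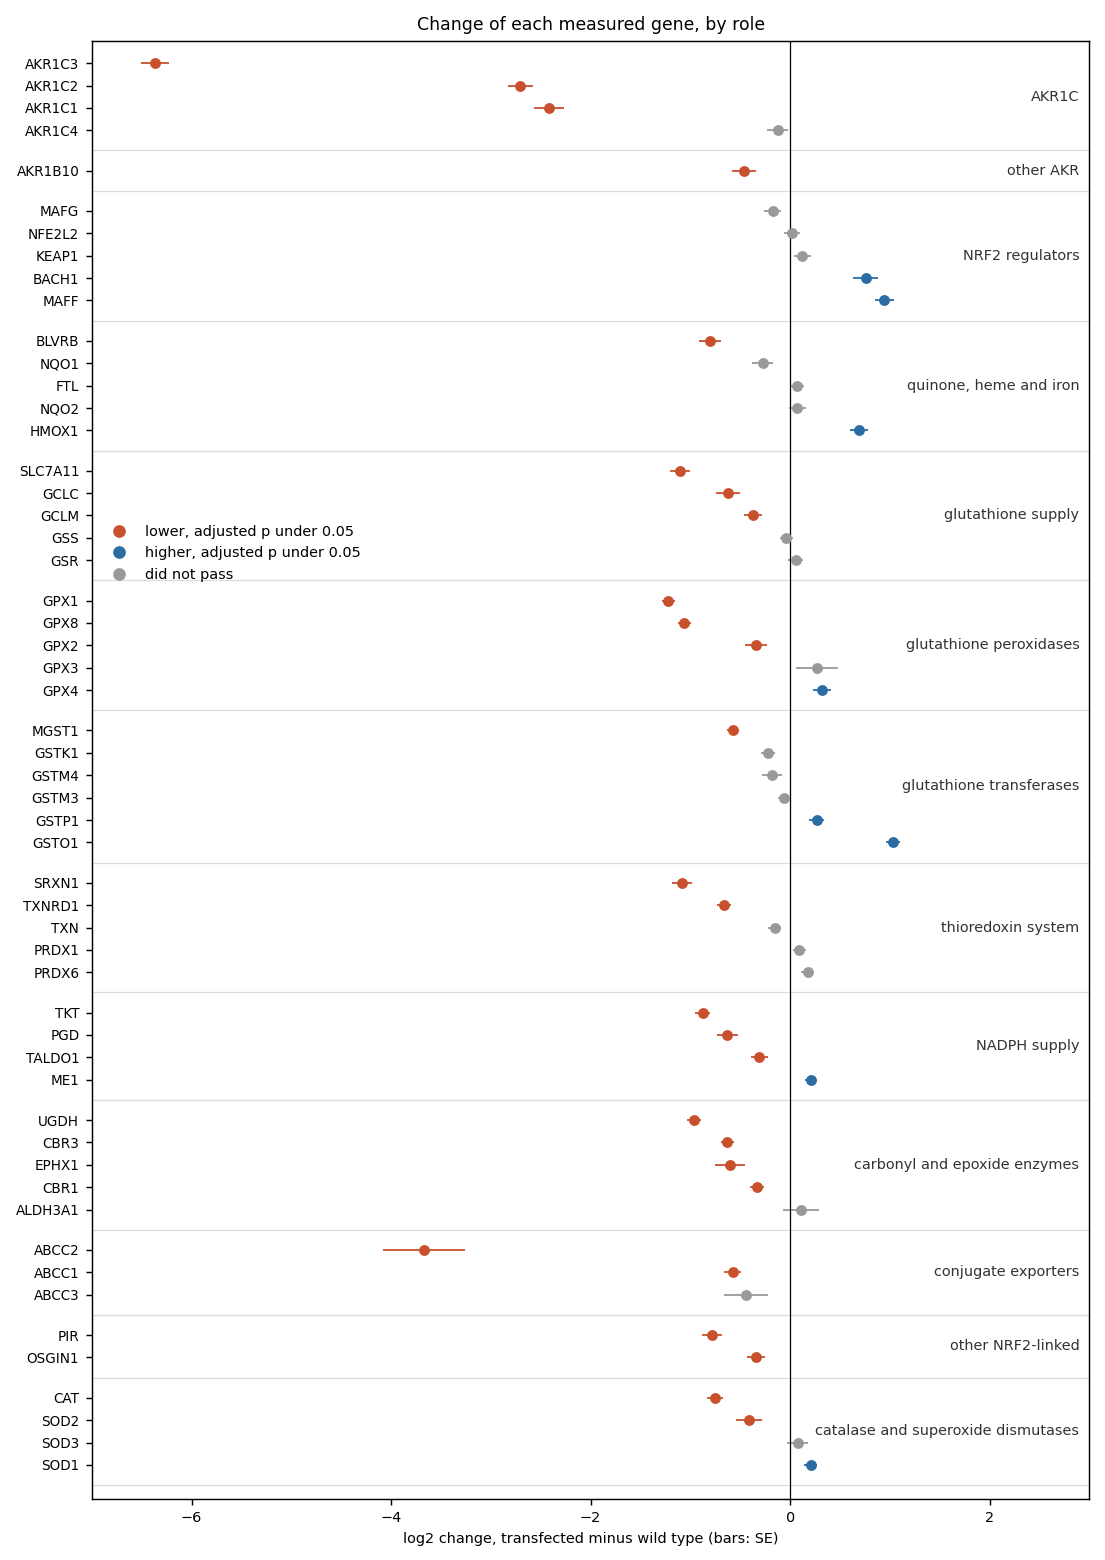
Log2 change (transfected minus wild type, horizontal axis) of the 54 measured genes, grouped by role, with the standard error as bars and the test's call as colour. AKR1C3, ABCC2, AKR1C2 and AKR1C1 lie furthest to the left, at -6.37, -3.67, -2.71 and -2.42, and GSTO1 furthest to the right, at 1.03.

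Wild type replicate 3 was the highest of the 3 wild type arrays in 37 of the 54 genes and in 20 of the 27 that were lower. The same was so for 35.8% of all lower genes above the median. It is also the array on which 6354 values carry more than 2 decimals, as none do on the other arrays. Without it 23 of the genes were lower and 6 higher. Its part in the results was not tested further.

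The steroid and prostaglandin reductases AKR1C1, AKR1C2 and AKR1C3 fell, and AKR1C4, an enzyme of liver, stayed near background. AKR1C3, which makes testosterone and prostaglandin F, read 9.94, 10.01 and 10.49 on the wild type arrays and 3.80, 3.74 and 3.79 on the transfected arrays. The groups are far apart, and the transfected level lies below the median of all values, where RMA compresses differences. The fall was therefore at least 82.7-fold (log2 change -6.37, SE 0.14, adjusted p = 9.29e-07). AKR1C2, which inactivates dihydrotestosterone, read 10.78, 10.89 and 11.01 against 7.92, 8.33 and 8.31. It fell 6.53-fold (log2 change -2.71, SE 0.13, adjusted p = 1.02e-05) to a level that was still above the median. AKR1C1, which inactivates progesterone, read 11.76, 11.82 and 12.01 against 9.19, 9.37 and 9.77. Its groups did not overlap either, and it fell 5.35-fold (log2 change -2.42, SE 0.15, adjusted p = 3.26e-05). AKR1C4 read 3.24, 3.05 and 2.99 against 2.81, 2.99 and 3.10, overlapping values at the dim end of the scale (log2 change -0.13, SE 0.10, adjusted p = 0.446).

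The falls of AKR1C1 and AKR1C2 were read by probe sets ending in _x_at, which can bind near-identical messages, so these genes cannot be told apart with certainty. Of 11 AKR1C probe sets, 6 were lower over all probe sets and 5 did not pass. The other bright AKR1C1 probe set fell by 2.51, and the other bright AKR1C2 probe set fell by 2.61 (adjusted p = 5.17e-06 and 8.11e-06 over probe sets). The 4 bright _x_at probe sets thus gave changes from -2.71 to -2.42. A dim probe set that names AKR1C1 and AKR1C2 together read 4.19, 4.68 and 5.08 against 3.09, 3.36 and 3.25 and also fell (log2 change -1.42, adjusted p = 0.00177). The 3 dim AKR1C1 probe sets changed by -0.21, -0.26 and -0.37 and did not pass. The dim AKR1C2 probe set read 3.87, 3.52 and 3.67 against 3.72, 3.77 and 3.65. With the _x_at and _s_at kinds left out, AKR1C2 has that dim one (log2 change 0.03, adjusted p = 0.909) and AKR1C1 a dim one (log2 change -0.37, adjusted p = 0.0496). AKR1C3 has 1 probe set, of neither kind.

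**Figure D2:**
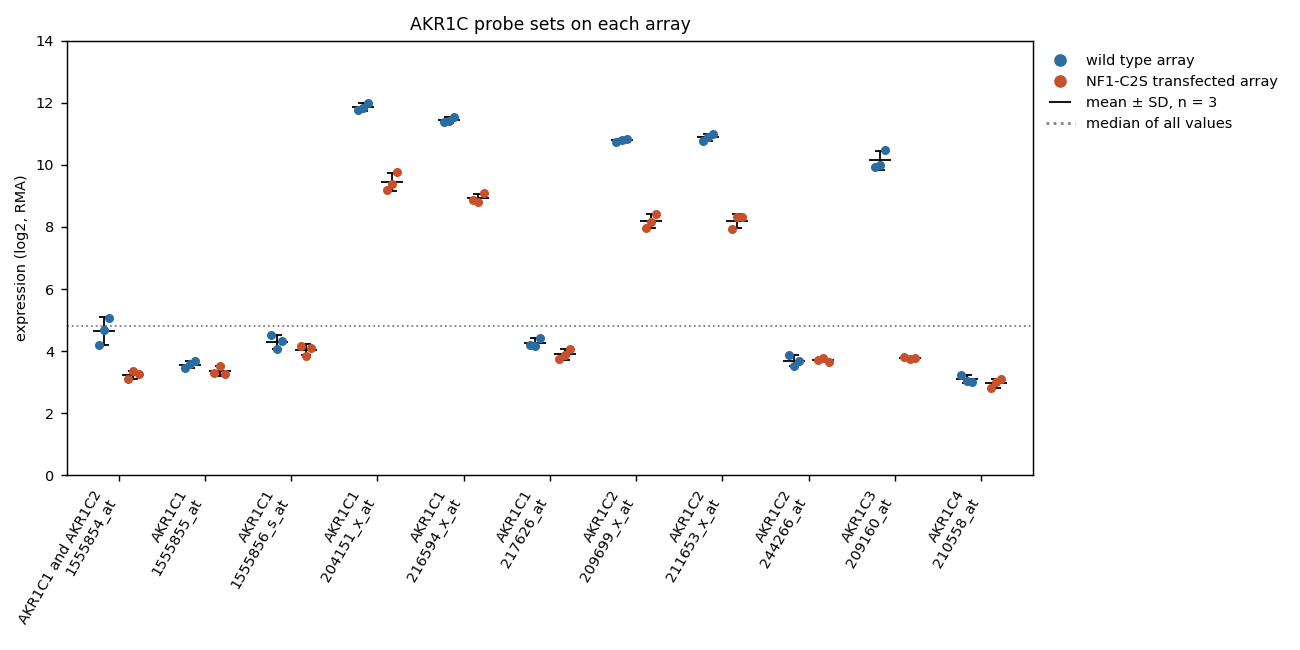
Level on each array (log2, RMA) of the 11 AKR1C probe sets, with wild type arrays in blue, transfected arrays in red, black bars for mean and SD, and a dotted line at the median of all values (4.82). The 4 bright AKR1C1 and AKR1C2 probe sets stay above the line after the fall, whereas AKR1C3 ends below it at 3.78.

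The AKR1C genes lie in 1 cluster, from chr10:4963415-4983283 (AKR1C1) through chr10:4987775-5018000 (AKR1C2) and chr10:5048781-5107686 (AKR1C3) to chr10:5196837-5218949 (AKR1C4) in GRCh38.p14. Other entries of the gene table lie between some of them. Of the 10 genes on each side in the order of the gene table, 9 were measured. Among these, NET1 was lower (9.46 ± 0.32 to 8.88 ± 0.07, SD, n = 3 each; log2 change -0.58, adjusted p = 0.0233), and the other 8 did not pass. AKR1E2 and the pseudogene AKR1C6P, the nearest measured genes before AKR1C1, changed by -0.06 and -0.05. The 10 nearest measured genes on each side were also read, a window chosen after these values were seen. Of these 20, 3 were lower, 1 was higher and 16 did not pass, beside 16.9% lower and 15.0% higher of all genes. KLF6, a zinc finger factor, had the largest change of the 20, -0.61 (adjusted p = 0.0157).

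**Figure D3:**
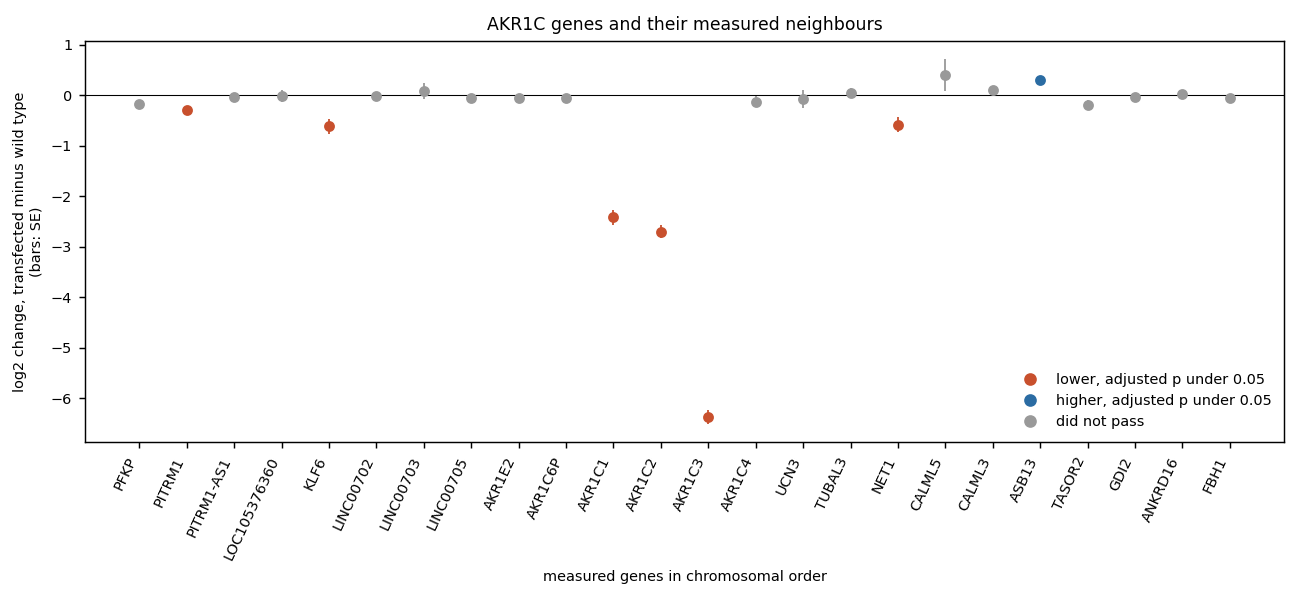
Log2 change with its standard error for the 4 AKR1C genes and the 10 nearest measured genes on each side, in chromosomal order and not to scale. AKR1C1, AKR1C2 and AKR1C3 stand between -2.42 and -6.37, and the neighbours between -0.61 and 0.40.

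AKR1B10, a retinal reductase and a further NRF2-responsive gene of the wider family, read 4.51, 4.50 and 4.81 against 4.13, 3.98 and 4.31. These levels are dim and do not overlap (log2 change -0.47, SE 0.12, adjusted p = 0.0208). Leaving out wild type replicate 3 or transfected replicate 2 ended the call (adjusted p = 0.0612 and 0.0713).

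Among the regulators, NRF2 and KEAP1 messages did not pass, and the small MAF protein gene MAFF and the repressor gene BACH1 rose. NFE2L2 read 11.11, 11.24 and 11.34 against 11.18, 11.28 and 11.28, overlapping values (log2 change 0.02, SE 0.08, adjusted p = 0.909), and its change turned to -0.04 without wild type replicate 1. KEAP1 read 8.56, 8.71 and 8.53 against 8.70, 8.83 and 8.64 (log2 change 0.12, adjusted p = 0.351). The NRF2 partner MAFG read 8.26, 8.22 and 8.33 against 8.10, 7.97 and 8.21 (log2 change -0.18, adjusted p = 0.167). MAFF, a small MAF protein without an activation domain, read 10.71, 10.66 and 10.54 against 11.48, 11.51 and 11.75. It rose 1.92-fold (log2 change 0.94, SE 0.10, adjusted p = 0.000254), and its other probe set by 0.86. BACH1 read 7.85, 8.03 and 8.11 against 8.56, 8.70 and 9.00, a 1.69-fold rise (log2 change 0.76, SE 0.13, adjusted p = 0.00296). Its other own probe sets changed by 0.33 and 0.14. A probe set that names NFE2L2 together with CSNK2A1 rose by 0.40 (adjusted p = 0.0179 over probe sets), whereas the 3 that name NFE2L2 alone did not pass. Message levels do not show how much NRF2 protein was present.

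The question of whether the AKR1C fall goes with other NRF2 targets was put to 29 listed genes that are established targets, of which 28 were measured. Of these, 18 were lower, 2 were higher and 8 did not pass, or 64.3% lower beside 16.9% of all genes. The list was chosen with earlier results of these data known, so this contrast is a description and no test. Of the 26 above the median in at least 1 group, 16 were lower (61.5%, beside 24.1%). Their median log2 change was -0.41, and 22 of the 28 values lay below 0. Leaving out 1 array at a time gave 13 to 17 lower genes, with 15 when wild type replicate 3 was left out. The mean of probe sets gave 14, and leaving out the _x_at and _s_at kinds gave 13. The 2 higher genes were HMOX1 and ME1. Outside the 28 and AKR1C, BLVRB, GPX1, GPX8, MGST1, CAT and SOD2 were lower. MAFF, BACH1, GPX4, GSTP1, GSTO1 and SOD1, also outside the 28, were higher. The targets included FTL and PRDX1, which did not pass and whose changes were 0.07 and 0.09.

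**Figure D4:**
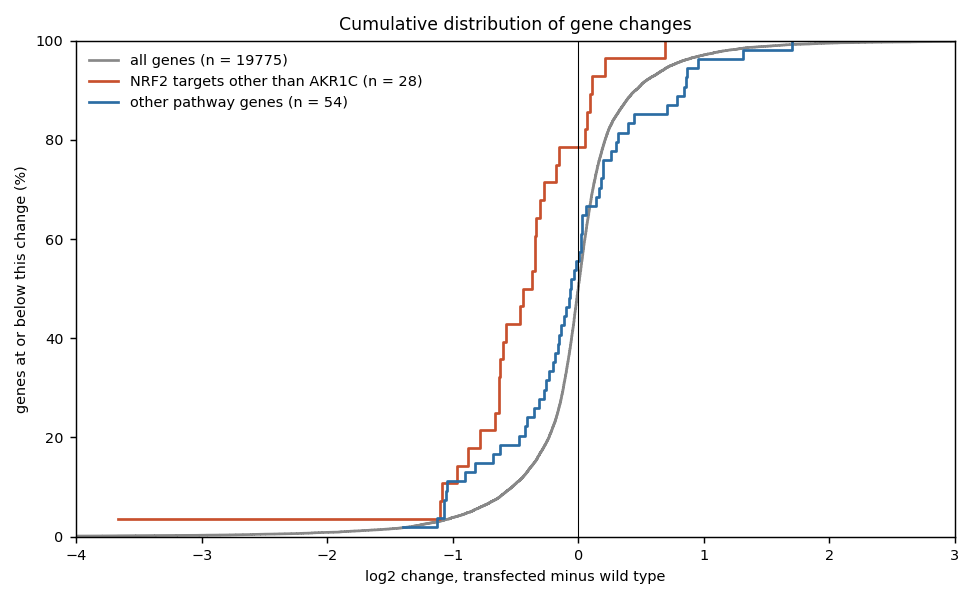
Share of genes (%) at or below each log2 change for all 19775 genes, the 28 measured NRF2 targets other than AKR1C and 54 other genes of the pathway, drawn from -4 to 3. The median of the targets lies at -0.41, that of the other pathway genes at -0.06 and that of all genes at 0.

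Of 5 genes of glutathione supply, 3 were lower, beside 24.1% of all genes above the median in at least 1 group. Among the 3, 2 encode the subunits of 1 enzyme. SLC7A11, which imports cystine, read 10.62, 10.60 and 10.86 against 9.49, 9.54 and 9.74 and fell 2.15-fold (log2 change -1.10, SE 0.10, adjusted p = 0.000176). Its other probe sets fell by 1.54 and 1.20. GCLC, the catalytic subunit of the first enzyme of glutathione synthesis, read 8.39, 8.39 and 8.59 against 7.59, 7.98 and 7.94. The groups did not overlap (log2 change -0.62, SE 0.12, adjusted p = 0.00599), but the mean of its probe sets changed by -0.27 (adjusted p = 0.21), and with the _x_at and _s_at kinds left out the value was -0.17 (adjusted p = 0.506). GCLM, the modifier subunit, read 10.74, 10.92 and 10.69 against 10.29, 10.48 and 10.47 (log2 change -0.37, adjusted p = 0.0181). Its call ended without wild type replicate 2 (adjusted p = 0.0587) and for the mean of its probe sets (log2 change -0.04). Glutathione synthetase (GSS) and glutathione reductase (GSR) changed by -0.04 and 0.05 and did not pass.

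The glutathione peroxidases went both ways. GPX1, the main cytosolic peroxidase, read 12.82, 12.86 and 12.79 against 11.62, 11.61 and 11.57, a 2.33-fold fall with little spread (log2 change -1.22, SE 0.06, adjusted p = 1.54e-05). GPX8, a peroxidase of the endoplasmic reticulum, read 10.91, 10.88 and 10.91 against 9.81, 9.85 and 9.86 on its brightest probe set (log2 change -1.06, SE 0.06, adjusted p = 2.61e-05). Its other probe set rose by 0.47 (adjusted p = 0.00445 over probe sets), and GPX8 was the 1 gene whose own called probe sets disagreed in direction. GPX4, which reduces lipid peroxides in membranes, read 10.91, 10.86 and 11.05 against 11.28, 11.14 and 11.36 (log2 change 0.32, adjusted p = 0.0275). Leaving out wild type replicate 1 or 2, or transfected replicate 1 or 3, ended that call (adjusted p = 0.0584 to 0.0932). GPX2, an NRF2 target of gut epithelium, was dim at 4.66, 4.27 and 4.61 against 4.18, 4.20 and 4.12 (log2 change -0.35, adjusted p = 0.0495). Its call ended with the replicate number as a block (adjusted p = 0.0527) and without any 1 array other than wild type replicate 2 (0.0766 to 0.153). The secreted GPX3 was dim and did not pass (log2 change 0.27, adjusted p = 0.427).

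Among the glutathione transferases, GSTO1 rose, MGST1 fell and the GSTM genes did not pass. GSTO1, an omega-class transferase, read 10.91, 10.89 and 10.80 against 11.89, 11.84 and 11.97, a 2.05-fold rise (log2 change 1.03, SE 0.07, adjusted p = 4.45e-05). Its second probe set rose by 1.01. MGST1, a membrane-bound transferase, read 13.61, 13.64 and 13.59 against 13.07, 13.05 and 13.00 (log2 change -0.57, adjusted p = 0.0004), and 4 of its 5 probe sets were lower, by 0.52 to 0.60. GSTP1 read 10.47, 10.42 and 10.61 against 10.79, 10.72 and 10.79 (log2 change 0.27, adjusted p = 0.033). Its call ended when any 1 array except wild type replicate 3 was left out (adjusted p = 0.0644 to 0.107). GSTM3, GSTM4 and GSTK1 changed by -0.06, -0.18 and -0.22 and did not pass.

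In the thioredoxin system, the reductase and sulfiredoxin fell, and the abundant thioredoxin and peroxiredoxins did not pass. SRXN1, which repairs oxidised peroxiredoxins, read 11.22, 11.21 and 11.48 against 10.16, 10.15 and 10.35 and fell 2.12-fold (log2 change -1.08, SE 0.10, adjusted p = 0.000175). TXNRD1, the cytosolic thioredoxin reductase, read 12.64, 12.62 and 12.71 against 11.94, 11.96 and 12.08, a 1.58-fold fall (log2 change -0.66, SE 0.07, adjusted p = 0.00035). The adjusted p was 0.114 for TXN (log2 change -0.16), 0.329 for PRDX1 (0.09) and 0.0839 for PRDX6 (0.18).

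Quinone, heme and iron genes did not move as a group. NQO1, the quinone reductase most used as an NRF2 readout, read 11.71, 11.61 and 11.95 against 11.47, 11.41 and 11.56. The groups did not overlap, and the change of -0.28 (SE 0.10) missed the threshold (adjusted p = 0.081), but passed it with the replicate number as a block (0.0346) and with trended, robust moderation (0.0142). Its 3 probe sets changed by -0.32, -0.25 and -0.28. HMOX1, which opens heme and is also repressed by BACH1, read 7.95, 7.94 and 7.95 against 8.53, 8.57 and 8.82. It rose 1.62-fold (log2 change 0.69, SE 0.09, adjusted p = 0.000864). BLVRB, a biliverdin reductase, read 10.40, 10.34 and 10.56 against 9.56, 9.50 and 9.83, a 1.75-fold fall (log2 change -0.80, SE 0.11, adjusted p = 0.00101). FTL, the ferritin light chain, read 14.08, 14.09 and 14.10 against 14.13, 14.14 and 14.21, near the top of the scale (adjusted p = 0.501). NQO2 changed by 0.07 and did not pass.

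**Figure D5:**
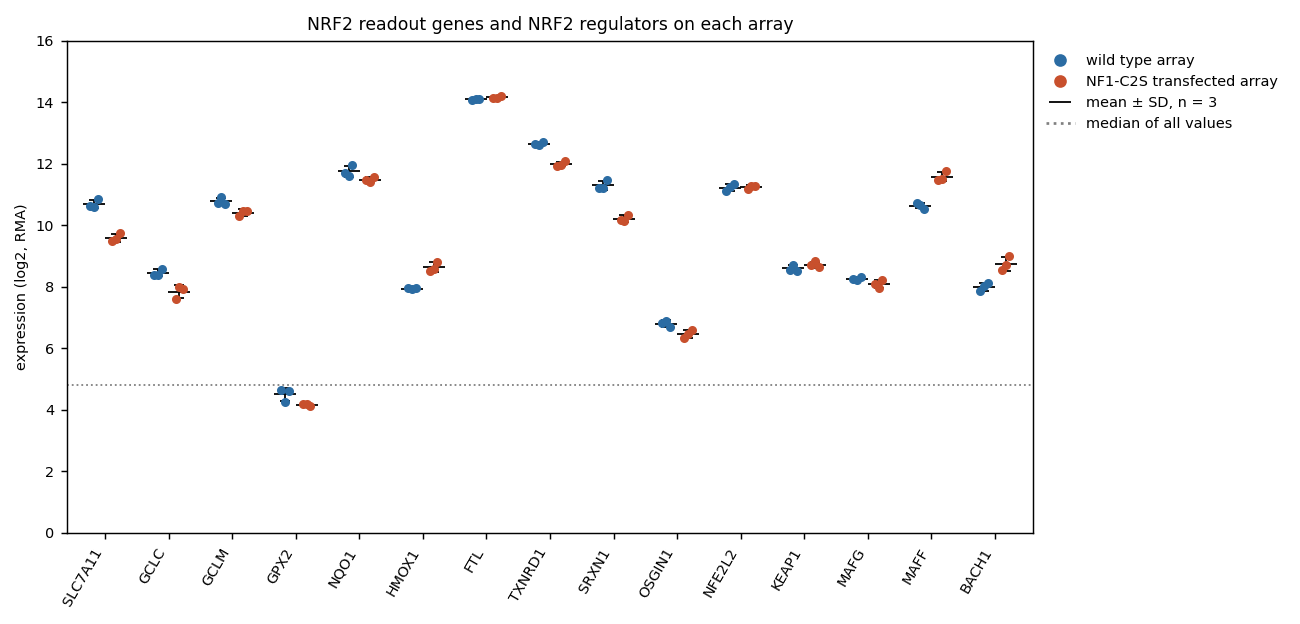
Level on each array (log2, RMA) of 10 genes widely used as NRF2 readouts and of 5 regulators, with wild type arrays in blue, transfected arrays in red, and black bars for mean and SD. SLC7A11, TXNRD1 and SRXN1 drop, HMOX1, MAFF and BACH1 rise, and NFE2L2 overlaps between the groups.

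Genes grouped under NADPH supply were lower at 3 of 4, beside 24.1% of all genes above the median in at least 1 group. TKT and TALDO1 do not make NADPH themselves. PGD and ME1 do, and PGD was lower and ME1 higher. TKT, transketolase of the pentose phosphate pathway, read 12.39, 12.47 and 12.59 against 11.64, 11.59 and 11.59 (log2 change -0.88, SE 0.08, adjusted p = 0.00012), and its other probe sets fell by 0.96 and 1.20. PGD, phosphogluconate dehydrogenase, read 11.00, 10.99 and 11.29 against 10.49, 10.37 and 10.53 (log2 change -0.63, SE 0.10, adjusted p = 0.00234). Its 2 dim probe sets changed by 0.13 and 0.15, so the mean of its probe sets did not pass (log2 change -0.11, adjusted p = 0.429). TALDO1, transaldolase, changed by -0.31 (adjusted p = 0.0265), a call lost when wild type replicate 3, or transfected replicate 1 or 2, was left out (adjusted p = 0.0596 to 0.0824). Malic enzyme, ME1, read 10.05, 10.07 and 10.10 against 10.28, 10.32 and 10.25 (log2 change 0.21, adjusted p = 0.042). Its other well-expressed probe set rose by 0.35 (adjusted p = 0.0187 over probe sets). The call on the brightest probe set ended with the replicate number as a block (adjusted p = 0.0654) and without any 1 of the 6 arrays (0.0662 to 0.135).

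Of 5 carbonyl, epoxide and glucuronate enzymes, 4 were lower, beside 24.1% of all genes above the median in at least 1 group. UGDH, which makes UDP-glucuronate for conjugation, read 10.60, 10.67 and 10.57 against 9.56, 9.73 and 9.66 and fell 1.95-fold (log2 change -0.96, SE 0.07, adjusted p = 7.21e-05). CBR3, a carbonyl reductase, read 8.54, 8.52 and 8.58 against 7.91, 7.93 and 7.91 (log2 change -0.63, SE 0.06, adjusted p = 0.000232). Its relative CBR1 fell by 0.33 (adjusted p = 0.0082). EPHX1, microsomal epoxide hydrolase, read 8.40, 8.49 and 8.97 against 8.07, 7.93 and 8.06, and the spread was mainly that of wild type replicate 3. It fell by 0.60 (SE 0.15, adjusted p = 0.018), a call that ended without transfected replicate 2 (adjusted p = 0.063). ALDH3A1 read 4.98, 4.93 and 5.10 against 5.57, 4.90 and 4.87 and did not pass (adjusted p = 0.736).

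ABCC2 had the second largest fall of all 54 genes. This apical exporter of glutathione and glucuronate conjugates read 7.85, 8.03 and 8.39 on the wild type arrays and 5.38, 4.32 and 3.57 on the transfected arrays. The groups are well apart, but the transfected arrays differ more among themselves (SD 0.91) than in any other of the measured genes. By the group means the fall was 12.7-fold (log2 change -3.67, SE 0.41, adjusted p = 0.000407). Transfected replicates 2 and 3 lie below the median of all values, where RMA compresses differences, but replicate 1 lies above it. The fold is therefore an estimate with wide error and not a lower bound. ABCC1, an exporter of glutathione conjugates in most tissues, read 9.49, 9.57 and 9.74 against 9.01, 8.99 and 9.07 (log2 change -0.58, SE 0.08, adjusted p = 0.00148), and its other probe set fell by 0.85. ABCC3 had overlapping groups (log2 change -0.44, adjusted p = 0.184), and none of its 5 probe sets passed.

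PIR, an iron-binding nuclear protein and NRF2 target, read 9.58, 9.64 and 9.82 against 8.75, 8.95 and 8.99, a 1.72-fold fall (log2 change -0.78, SE 0.10, adjusted p = 0.000702). OSGIN1, an oxidative stress response gene, read 6.84, 6.89 and 6.69 against 6.33, 6.47 and 6.59 (log2 change -0.34, adjusted p = 0.027). Leaving out replicate 1 or 2 of either group ended its call (adjusted p = 0.0655 to 0.0919).

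Catalase fell, and the superoxide dismutases differed. CAT, which breaks down hydrogen peroxide in peroxisomes, read 10.69, 10.65 and 10.82 against 9.97, 10.05 and 9.88 (log2 change -0.75, SE 0.08, adjusted p = 0.000336), and its second well-expressed probe set fell by 0.73. SOD2, the mitochondrial enzyme, had probe sets of opposite direction. The probe set that names SOD2 alone read 8.68, 8.47 and 8.93 against 8.12, 8.34 and 8.39 (log2 change -0.41, adjusted p = 0.0496), a call lost when wild type replicate 1 or 3, or any transfected array, was left out (adjusted p = 0.07 to 0.133). The 4 probe sets that name SOD2 together with the overlapping transcript SOD2-OT1 all rose, by 0.75 to 1.66, and the brightest of them rose by 0.75 (adjusted p = 0.0188 over probe sets). Signal of SOD2 and of SOD2-OT1 cannot be told apart on those 4, and the direction of SOD2 depends on the probe set. It is counted among the 27 lower genes by the probe set that names it alone, and with shared probe sets included the counts were 26 lower and 9 higher. SOD1, the cytosolic enzyme, changed by 0.21 (adjusted p = 0.0438), which did not pass with the replicate number as a block (0.0609) or without any 1 of the 6 arrays (0.0746 to 0.136). The secreted SOD3 changed by 0.07 and did not pass.

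The other genes of the pathway, which are not among the 57, moved in both directions. Of 59 listed, 54 were measured, 16 were lower, 11 were higher and 27 did not pass. The shares of 29.6% lower and 20.4% higher stand beside 16.9% and 15.0% of all genes, and for the 48 above the median in at least 1 group the shares were 29.2% and 22.9% beside 24.1% and 21.6%. The largest fall was that of CYP4F11, a fatty acid hydroxylase (4.52 ± 0.26 to 3.13 ± 0.22, SD, n = 3 each, log2 change -1.40, adjusted p = 0.000419). Both of its group means lie below the median of all values, where RMA compresses differences. Next were ABCB6, a porphyrin transporter (log2 change -1.12), and CBR4, a carbonyl reductase, with PTGR1, a prostaglandin reductase (both -1.07). CUL3, the scaffold of the ligase that KEAP1 guides to NRF2, was named after its value was seen and fell by 1.06 (adjusted p = 3.26e-05). The largest rises were those of MGST2, a membrane-bound transferase (7.07 ± 0.07 to 8.77 ± 0.17, log2 change 1.70, adjusted p = 2.61e-05), TXNRD2, the mitochondrial thioredoxin reductase (1.31), and IDH1, an NADPH-producing dehydrogenase (0.95).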

How the data were processed

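Values are on the log2 scale as deposited, from RMA per the submitters' processing notes. The sources used here do not say which version was run or which arrays were normalized as 1 set. Groups and replicate numbers come from the sample titles. The 62 control probe sets were left out. Probe sets were named through the platform annotation, with symbols updated by gene identifier. The groups were compared with limma 3.58.1 (R 4.3.3, moderated linear model, two-sided, Benjamini-Hochberg adjusted p under 0.05). This was done once over 54613 probe sets and once over 19775 genes, each read by its brightest probe set that names only that gene. The fit was also run on simulated data whose arrays vary independently, so that run is no check on the shared deviations given below. A fold is given as a lower bound ("at least") if every array of 1 group read under the overall median of 4.82. The number of arrays limits the precision.

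By rule the AKR1C genes, the regulators, the NRF2 readouts and every gene called at 1.5-fold or more are given in full; other called genes are also given, and from the other lists the 3 largest changes each way. Members and lists were chosen with earlier results of these data known. The arrays of replicate numbers 1 and 2 deviated together from their group means (correlations of 0.398 and 0.238, beside -0.277 to 0.142 for pairs of different number). For replicate 3 the correlation, 0.140, lay within that range. The blocked value therefore stands beside a result whose call it changes. Alternatives were quantile normalization, median centring, trended robust moderation, a filter on dim probe sets, the replicate block, array weights, each array left out, the mean of probe sets and other choices of probe set. Promoter windows are the 250 bases before RefSeq starts.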

Additional observations from a re-analysis of the deposited data

How the results depend on the processing

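Of the listed genes, 35 passed the test, and the count was 31 to 39 under other normalizations, moderation, array weights, a filter on dim probe sets, the replicate block (34) or the mean of probe sets, 26 with the _x_at and _s_at kinds left out, and 26 to 29 without 1 array. The number lower, 27, was 24 to 29 under the first of these, 19 with those kinds left out and 21 to 25 without 1 array. The number higher, 8, fell to between 4 and 6 without 1 array. Established targets that were higher, 2, came to 1 with each array centred on its median, with the replicate block, for the mean of probe sets and without any 1 array (1 throughout), since the call of ME1 ended there. Of the 35 called genes, 24 passed without any 1 array and 11 did not, 7 lower and 4 higher. Changes of direction were those of AKR1C2 (0.0267 with the _x_at and _s_at kinds left out, on a dim probe set), NFE2L2 (-0.0411 without wild type replicate 1, and up to 0.0717 without another array) and SOD2 (0.75 on its brightest probe set when shared ones are included, an alternative chosen after seeing the data). The replicate block moved no other count by over 1.5 times. Dim probe sets limit AKR1C4, AKR1B10, GPX2, GPX3 and the size of the AKR1C3, ABCC2 and CYP4F11 falls, where RMA compresses differences.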

Other observations

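Enzymes that share steroid and prostaglandin substrates with AKR1C were also read. Of 25 listed genes 23 were measured, and 7 were higher, 2 lower and 14 did not pass, beside 15.0% higher and 16.9% lower of all genes. HSD11B1, which activates cortisone, rose from 5.05 ± 0.66 to 6.79 ± 0.11 (SD, n = 3 each; log2 change 1.74, limma adjusted p = 0.00295). SRD5A1, a steroid 5-alpha reductase, rose by 1.06 (adjusted p = 0.000241) and HSD17B14, an estradiol-oxidising enzyme, by 1.04 (adjusted p = 0.00534). The 2 that fell were HSD17B11 (log2 change -0.85, adjusted p = 0.000594) and HSD17B1, which makes estradiol (log2 change -0.54, adjusted p = 0.00757). Aromatase (CYP19A1) and the prostaglandin dehydrogenase HPGD changed by -0.01 and -0.10 and did not pass.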
